A study of Homo sapiens with 2 samples.

Results

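The features described here were counted almost entirely in the library of the SFB empty vector and hardly at all in the library of SFB-Ku80. They were chosen by their counts in both libraries. A feature was taken when it had 2000 or more counts in SFB empty vector and a SFB-Ku80 count of at most 1/32 of that number. Mitochondrial features, features of chromosome 1 that start before 75.7 Mb and features of chromosomes 13, 14, 15, 21 and 22 that start before 10 Mb were left out. This rule found 72 of the 63494 annotated features. Of the 998 features outside the left-out regions with 2000 or more counts in SFB empty vector, which are called well-counted features below, they are 7.21%, and the other 926 serve for comparison. The counts that chose the features are given as a description, without any test.

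The libraries come from PAR-CLIP in HEK293T, an established human embryonic kidney cell line. In this assay a photoreactive nucleoside is built into RNA, light links the RNA to the proteins it touches, and the RNA that is purified with a tagged protein is sequenced. The cells are described as stably carrying either the SFB empty vector or SFB-Ku80, a Ku80 with SBP and tandem FLAG tags. The study's methods, however, place Ku80 in a vector meant for transient transfection. Both kinds of cell received 0.1 mM 6-thioguanosine overnight and 0.4 J/cm2 of 365 nm light. Their lysates went over streptavidin resin and then FLAG resin. With 1 library from each kind of cell, differences between them rest on single purifications without a replicate check, and no p-value is given.

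Ku80 and Ku70 form a ring-shaped heterodimer that holds broken DNA ends and recruits the kinase DNA-PKcs, and the heterodimer can also hold structured RNA. A purification from cells with an empty vector is the usual control of such an assay. It shows which RNA stays on the resins when no tagged Ku80 is there to carry it.

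The libraries had 19775629 counts on features in SFB empty vector against 17892815 in SFB-Ku80. A count is 1 read placed on a feature, and a read that maps to several places is counted at each of them. Uniquely mapped read pairs, counted separately, numbered 6062669 and 1443251 on features, so SFB empty vector had 4.20 times as many. The count tables pair feature IDs with no gene names, and the names that the study lists, as far as they were used here, reach none of the 72. The features are therefore given by their place on CHM13 v1.1, and marker genes of the cell line were not checked. No molecular identifiers are stated, so all intervals cover counting error only and are too narrow even for that.

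The 72 features together held 1728284 counts in SFB empty vector, which is 8.74% of that library (95% Clopper-Pearson interval 8.73 to 8.75%). In SFB-Ku80 they held 8867 counts, or 0.0496% (0.0485 to 0.0506%). In SFB empty vector the count of a single feature lay between 2024 and 191741 (median 13315), and 39 of the 72 features had 10000 or more counts. In SFB-Ku80 it lay between 0 and 515 (median 75.5), and 46 of the 72 features had under 100 counts. The values of the libraries do not overlap. The rule sets each feature against its own count and chose the features on these values, so nothing is read from that. Less RNA bound, less RNA recovered and fewer cells in a purification cannot be told apart in these libraries.

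**Figure D1:**
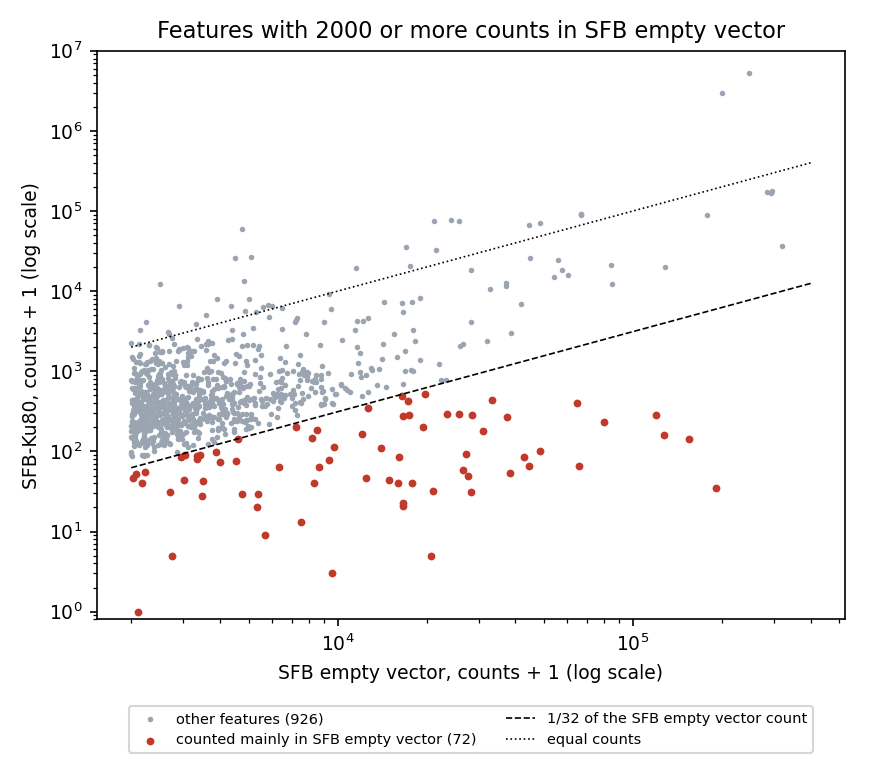
Counts of the 998 well-counted features in SFB empty vector (horizontal, counts + 1, log scale) and SFB-Ku80 (vertical, counts + 1, log scale), 1 point per feature. The 72 features counted mainly in SFB empty vector (red) lie under the dashed line of 1/32, and their SFB-Ku80 counts stay at or under 515 while their SFB empty vector counts reach 191741.

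Most well-counted features were lower in SFB-Ku80, and the 72 features have to be read against that. Well-counted features were filtered on the SFB empty vector count alone, which favours features that are high there. In sum the other 926 held more counts in SFB-Ku80 (10669526 against 6787337), with 9268877 of those on chromosome 17. Over the other 926 the SFB empty vector count was a median of 7.87 times the SFB-Ku80 count, without scaling. Over the 71 of the 72 with a SFB-Ku80 count above 0 it was 129 times. On the log2 scale with a pseudocount of 1, the median ratio of SFB-Ku80 to SFB empty vector was -7.04 for the 72 features and -2.97 for the others. The difference of these medians was -4.07. Per kilobase of exon, the 72 features had a median of 2530 counts in SFB empty vector against 600.1 for the others, and 13.95 counts in SFB-Ku80 against 76.3. They were thus both higher in the control and lower in the purification than the other well-counted features, a pattern that the rule itself favours. The mirrored rule, with the libraries exchanged, took 3 of the 135 features with 2000 or more counts in SFB-Ku80, or 2.22%.

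The ratios spread widely below the limit. Of the 72 features, 22 had a SFB-Ku80 count between 1/64 and 1/32 of the SFB empty vector count, 12 between 1/128 and 1/64, 10 between 1/256 and 1/128, 11 between 1/512 and 1/256, and 17 at or under 1/512. Above the limit the numbers rose steeply, with 131 features between 1/32 and 1/16 and 325 between 1/16 and 1/8. The lowest class, which has no lower end, was thus more filled than each of the 3 classes next to it. The features just inside the ratio limit were chr6:33029853-33034075 with 4610 counts in SFB empty vector against 140 in SFB-Ku80, chr4:930459-956764 with 3030 and 89, and chrX:130950681-131286109 with 16512 and 485, followed by chr15:73206082-73213285 with 2953 and 83. Just outside it were chr6:33093437-33097873 with 23270 and 774 counts, chrX:111226379-111292662 with 3642 and 123, and chr2:127482412-127541679 with 3804 and 129. The members with the fewest counts in SFB empty vector were chr19:18006026-18029260 with 2024 counts, chr15:55867532-55873350 with 2073 and chr4:150750088-150750465 with 2108. Just under the minimum lay chr13:70239751-70393639 with 1893 and 33 counts, chr3:193669068-193708745 with 1774 and 4, and chr19:15633518-15677350 with 1747 and 29.

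The feature with the most counts was CHM13_G0043058 at chr4:151402687-151768795, on the minus strand with 13 merged exons and 6607 bases of exon. It had 191741 counts in SFB empty vector against 34 in SFB-Ku80 (exact Poisson interval 23.5 to 47.5), so the count was 5639 times as high in SFB empty vector (exact interval 4036 to 8144). Uniquely mapped pairs showed the same separation, with 88480 in SFB empty vector against 10 in SFB-Ku80. This single feature held 11.1% of the SFB empty vector counts of all 72. CHM13_G0021565 at chr16:53257941-53498326, with 38 exons on the plus strand, had 154258 and 140 counts and 15223 and 63 unique pairs. The minus-strand feature chr3:190034707-190109459 had 127375 and 161 counts, but only 2656 and 30 unique pairs. Another on the minus strand, chr5:142517671-142543245, had 119533 and 285 counts and 34931 and 193 unique pairs. Those 4 features made up 34.3% of the counts of the 72 in SFB empty vector, and the 10 highest made up 54.3%.

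The next 6 in that order had lower counts, again far fewer in SFB-Ku80. Of these, chr19:7103352-7286608 had 79839 counts in SFB empty vector against 232 in SFB-Ku80, chr11:31505677-31568659 had 65773 and 65, and chr20:61720935-61724577 had 64773 and 402. At chr17:43013376-43037630 there were 48357 and 100 counts, at chr10:76107149-76109538 there were 44486 and 64, and at chr15:38500456-38538035 there were 42795 and 85. In unique pairs chr11:31505677-31568659 had only 452 and 31, so its separation in counts rests mostly on reads that map to several places. Per kilobase of exon in SFB empty vector, the order was another one. The 165-base feature chr1:146284584-146284748 stood first with 100582 counts per kilobase, ahead of 76043 for the 164-base feature chr6:13087445-13087608, 30344 for the 128-base feature chr6:36460187-36460314, 30185 for chr5:142517671-142543245 and 29021 for chr4:151402687-151768795.

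**Figure D2:**
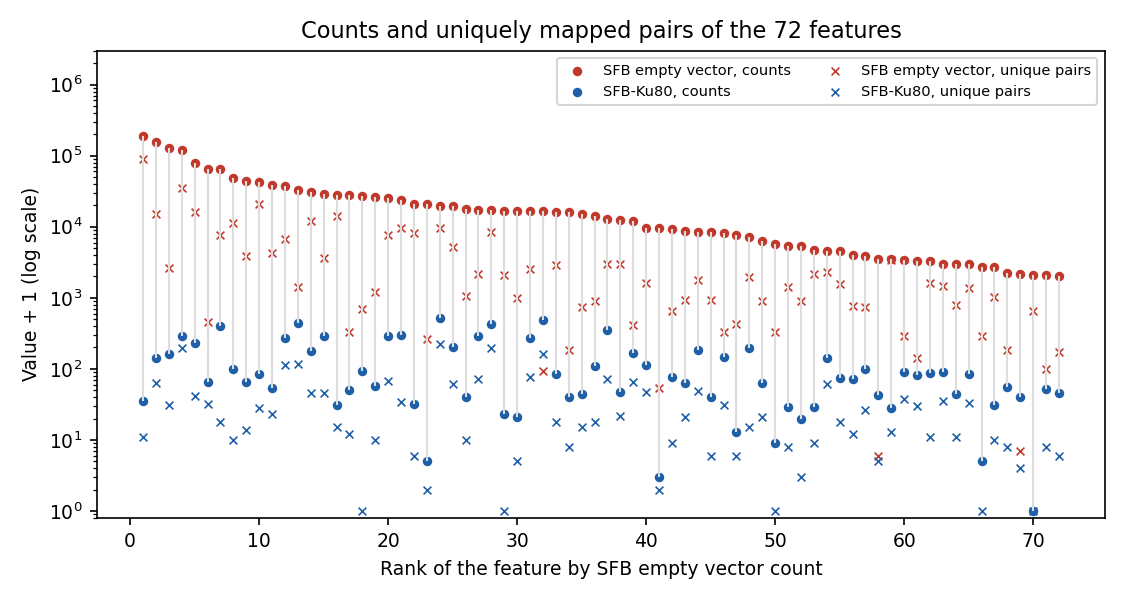
Counts (circles) and uniquely mapped pairs (crosses) of the 72 features in SFB empty vector (red) and SFB-Ku80 (blue), as value + 1 on a log scale, against the rank of the feature by SFB empty vector count. The SFB-Ku80 counts lie between 0 and 515 along the whole order, and at 1 rank, that of the feature on chromosome X, the blue cross lies above the red one (162 against 91 pairs).

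Some features had next to no reads in SFB-Ku80. At chr4:150750088-150750465, a 378-base feature with 1 exon, SFB-Ku80 had 0 counts against 2108 in SFB empty vector. With the limit of 3 counts that a count of 0 allows, it was at least 703-fold lower in SFB-Ku80. Another feature of 1 exon, chr6:22975834-22976700, had 2 counts against 9553, a ratio of 4776 with an exact interval of 1322 to 39447. In unique pairs it had only 1 against 52, so that ratio rests mostly on reads that map to several places. At chr2:3681121-3725243 SFB-Ku80 had 4 counts against 20668, but only 1 unique pair against 259. In all, 5 features had under 10 counts in SFB-Ku80.

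Uniquely mapped pairs come from the same libraries, so they are no independent check, but they leave out reads that fit several places. The 72 features had 345229 unique pairs in SFB empty vector, or 5.69% of those on features (5.68 to 5.71%), and 2448 in SFB-Ku80, or 0.170% (0.163 to 0.176%). Of the 72, 57 also had a SFB-Ku80 number of pairs of at most 1/32 of the SFB empty vector number, as did 22 of the other 926. For 5 of the 72 there was no unique pair in SFB-Ku80. Over the 67 with a pair in both libraries, the median was 81.3 times as many pairs in SFB empty vector, against 9.75 times for the others. On the log2 scale with a pseudocount of 1, the median ratio in pairs was -6.37 for the 72 and -3.25 for the others.

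In 1 feature the unique pairs went against the counts. The minus-strand feature chrX:130950681-131286109, with 9 exons and 5002 bases of exon, had 16512 counts in SFB empty vector against 485 in SFB-Ku80, but 91 and 162 unique pairs. Its place in the group therefore rests on reads that map to several places. At chr12:102918498-102921335 there were 3489 and 42 counts on 5 and 4 unique pairs, and at chr6:36518456-36553808 there were 2168 and 39 counts on 6 and 3 pairs. These last 2 were singled out after their values had been seen.

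The share of reads that map to several places can be roughly read from the counts per unique pair. A uniquely mapped pair mostly gives about 2 counts, 1 for each read. The lowest values, 1.03 among the 72 and 1.01 among the others, lie under that, so the measure is only a rough guide. The other well-counted features had a median of 2.16 counts per unique pair in SFB empty vector, while the 72 features had a median of 7.45, with quartiles of 3.42 and 17.4. Up to 3 counts per pair were found for 16 of the 72 features (22.2%) and 737 of the other 926 (79.6%). From 3 to 10 counts per pair were found for 28 (38.9%) and 100 (10.8%), and over 10 for 28 (38.9%) and 81 (8.75%). The highest values among the 72 were 697.8 at chr12:102918498-102921335 and 361 at chr6:36518456-36553808. In SFB-Ku80, where the reads are few, the medians were 4 counts per pair for the 72 and 2.68 for the others. Multimapping reads thus made up more of the counts of these features than of the other well-counted features. Whether they came from the places at which they were counted was not tested.

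Features poor and rich in multimapping reads were both among the 72. The 16 features with up to 3 counts per pair had 404714 counts in SFB empty vector against 2154 in SFB-Ku80, and 185506 and 730 unique pairs. Of these pairs, 88480 and 10 lay on chr4:151402687-151768795, and the other 15 features had 97026 and 720. Since the rule chose all of them for their ratio, these sums are a description. Among them, chr4:151402687-151768795 had 2.17 counts per pair and chr15:38500456-38538035 had 2.08. The 28 features over 10 counts per pair had 694313 and 2618 counts, and 33254 and 687 pairs. The median log2 ratio was -6.38 for up to 3 counts per pair, -7.10 for 3 to 10 and -8.29 for over 10.

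The reads also differed in their orientation. The table of unique pairs gives 2 stranded numbers for each feature, 1 for pairs whose first read lies on the strand of the feature and 1 for pairs whose second read does. Over all features the second column held 75.1% of the stranded pairs in SFB empty vector against 67.6% in SFB-Ku80, so it is the prevailing orientation, although the labels do not say whether the libraries keep the strand. In SFB empty vector, 27 of the 72 features (37.5%) had more pairs in the first column, against 81 of the other 926 (8.75%). Over 90% of the pairs lay in the first column for 20 of the 72 (27.8%) and 15 of the 926 (1.62%). Over 90% lay in the second column for 27 of the 72 (37.5%) and 81 of the 926 (8.75%). The quartiles of the first column's share were 6.43%, 15.2% and 90.8% over the 72 features and 13.1%, 16.1% and 20.1% over the others. The 72 features thus lay towards both ends of the scale, and the others near its lower part.

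**Figure D3:**
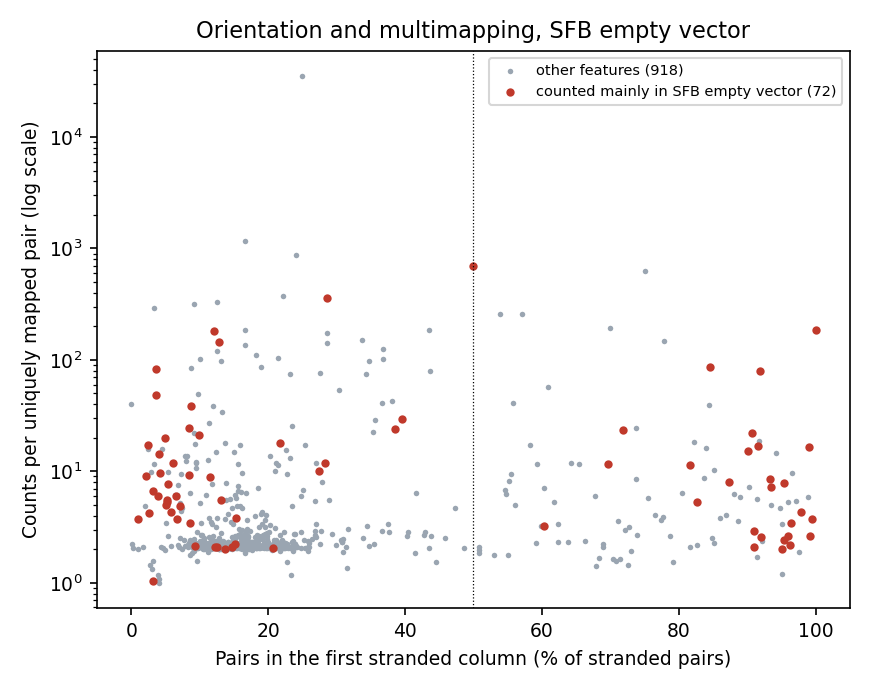
Share of stranded pairs in the first stranded column (horizontal, %) and counts per uniquely mapped pair (vertical, log scale) of well-counted features in SFB empty vector, 1 point per feature with at least 1 unique pair. The others crowd near their medians of 16.1% and 2.16, while the 72 features (red) gather at both sides, 20 of them over 90%, and reach 697.8 counts per pair.

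The feature with the most counts, chr4:151402687-151768795, had 85191 pairs in the first column and 3295 in the second. Similar splits were found at chr5:142517671-142543245 with 33683 and 1269 pairs, at chr17:43013376-43037630 with 10929 and 239, and at chr20:61720935-61724577 with 7107 and 507. The opposite split was found at chr19:7103352-7286608 with 811 and 15240, at chr3:190034707-190109459 with 97 and 2559, and at chr15:38500456-38538035 with 3043 and 17556. Of the 27 features with more pairs in the first column, 18 lie on the minus strand of the annotation and 9 on the plus strand. Counting only the 46 features whose exons meet no exon of a feature on the other strand, a limit added after the values had been seen, 19 (41.3%) had more pairs in the first column, against 49 of 569 (8.61%) of the others. With at most 3 counts per pair it was 8 of 16 features (50%) against 30 of 737 (4.07%).

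The same 27 features, chosen here for their majority in SFB empty vector, were more evenly split in SFB-Ku80. Summed over them, the first column held 198280 pairs and the second 10419 in SFB empty vector, or 95.01% in the first (94.9 to 95.1%). In SFB-Ku80 they held 385 and 340 pairs, or 53.1% (49.4 to 56.8%). The feature chr5:142517671-142543245 supplied 163 of the 385 and 30 of the 340, and without it the first column held 222 and the second 310, or 41.7% in the first. Of the 25 of these features with a stranded pair in SFB-Ku80, 11 had more pairs in the first column there and 12 in the second. Of the 81 other well-counted features with more pairs in the first column in SFB empty vector, 63 had more there in SFB-Ku80 too. Summed over those 81, however, the first column held 79.97% of the stranded pairs (79.8 to 80.2%) in SFB empty vector. For SFB-Ku80 the share was 49.1% (48.9 to 49.3%), so the sum over the 81 was more evenly split there too. By feature the sets differed, since 63 of the 81 but 11 of the 25 kept their majority in the first column. The 44 features with more pairs in the second column kept that side in both sums, with 11.2% in the first column in SFB empty vector (11.0 to 11.3%) and 22.9% in SFB-Ku80 (20.97 to 24.8%). These sums weight features by their pairs, and the feature with the most pairs alone supplied 85191 of the 198280. At that feature SFB-Ku80 had 4 pairs in the first column and 7 in the second. The median log2 ratio of the counts was -8.64 over the 27 features and -6.61 over the 44, while the median of counts per pair was 7.16 in both.

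By length the features were much like other well-counted features. Their exonic length ran from 128 to 28727 bases with a median of 5020, against a median of 5636 for the others. Of the 72, 62 (86.1%) had 2000 or more bases of exon, as did 830 of the 926 (89.6%). The median number of merged exons was 11 in both sets. The span from first to last exon was longer, with a median of 35116 bases against 19370, and 17 features (23.6%) spanned 100 kb or more, against 89 of the others (9.61%). Exons filled a median of 14.5% of the span, against 31.8%. By strand of the annotation, 34 lay on the plus strand (47.2%) and 38 on the minus strand, and the others were split 463 and 463.

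The longest by exon was chr8:62672659-63438577, with 28727 bases in 15 exons and 7223 and 198 counts. After it came chr1:214863291-215663779 with 20633 bases in 73 exons and 8315 and 39 counts. At chr3:28576681-30012796, 18447 bases of exon lie in a span of 1436116 bases, and the counts were 19434 and 201. The features chr18:46858373-46949895 and chr5:80174110-80284164, with 15694 and 14220 bases, had 13979 and 108 counts and 15966 and 39 counts. Per kilobase of exon, the longest feature had 251 counts in SFB empty vector, the lowest value of the 72.

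Of the 72 features, 8 had a single exon (11.1%), as did 81 of the others (8.75%). The 4 under 200 bases were alike in size and orientation. The 165-base feature of chromosome 1 had 16596 counts in SFB empty vector against 273 in SFB-Ku80, with 2517 and 75 unique pairs. That of 164 bases on chromosome 6 had 12471 and 46 counts, with 2947 and 21 pairs. At chr15:80038290-80038451, a feature of 162 bases, there were 3480 and 27 counts and 3365 and 12 pairs, and the 128-base feature of chromosome 6 had 3884 and 97 counts and 734 and 25 pairs. In SFB empty vector all 4 had most pairs in the second column, with 3.17%, 2.54%, 3.18% and 5.16% in the first. At 1.03 counts per pair, the 162-base feature had the fewest of the 72, while the other three had 6.59, 4.23 and 5.29.

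Few of the features lay within 1 Mb of another of the 72, and grouping was not tested. The 72 features lay on 22 chromosomes, with 7 on chromosome 15, 6 on chromosome 6, 5 each on chromosomes 4 and 11, and 6 chromosomes with 1 feature each. As a share of the well-counted features of a chromosome, they were most frequent on chromosome 4 with 5 of 24 (20.8%) and chromosome 15 with 7 of 34 (20.6%). The 5 features of chromosome 4 held 256387 counts in SFB empty vector against 206 in SFB-Ku80, of which 191741 and 34 lay on chr4:151402687-151768795, and the 7 of chromosome 15 held 88686 against 402. On chromosome 12 it was 1 of 66 (1.52%), and none of the 10 on chromosome 13. No 2 of the 72 lay within 10 kb of each other, and 2 lay within 100 kb. These were chr6:36460187-36460314 and chr6:36518456-36553808, which are 58141 bases apart and on opposite strands. Within 1 Mb of another were 9 of the 72 features (12.5%), 3 on chromosome 6, 4 on chromosome 4 and 2 on chromosome 3. The feature with the most counts and that with 0 counts in SFB-Ku80 are among them, 652221 bases apart on chromosome 4. The features of chromosome 3, chr3:188921447-189177970 and chr3:190034707-190109459, lie on the same strand, but had 82.6% and 3.65% of their pairs in the first column. The former was named here for its neighbour, after its values had been seen. Of the other 926, 38.0% lay within 100 kb and 73.5% within 1 Mb of another of their own set. That set is larger, so its shares cannot be set directly against those of the 72.

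The features also stood farther from other well-counted features. The nearest of the 998 lay within 100 kb of 18 of the 72 features (25%) and of 367 of the other 926 (39.6%), and within 10 kb of 5 (6.94%) and 180 (19.4%). The median distance was 494.9 kb against 198.9 kb. Neighbouring features are not independent and no test of the spacing was made. Exons of a feature on the other strand were met by exons of 26 of the 72 (36.1%) and 357 of the others (38.6%), and exons of a feature on the same strand by 9 (12.5%) and 173 (18.7%), so overlaps in the annotation were about as frequent in both sets. A read that meets several features is not counted on any of them.

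**Figure D4:**
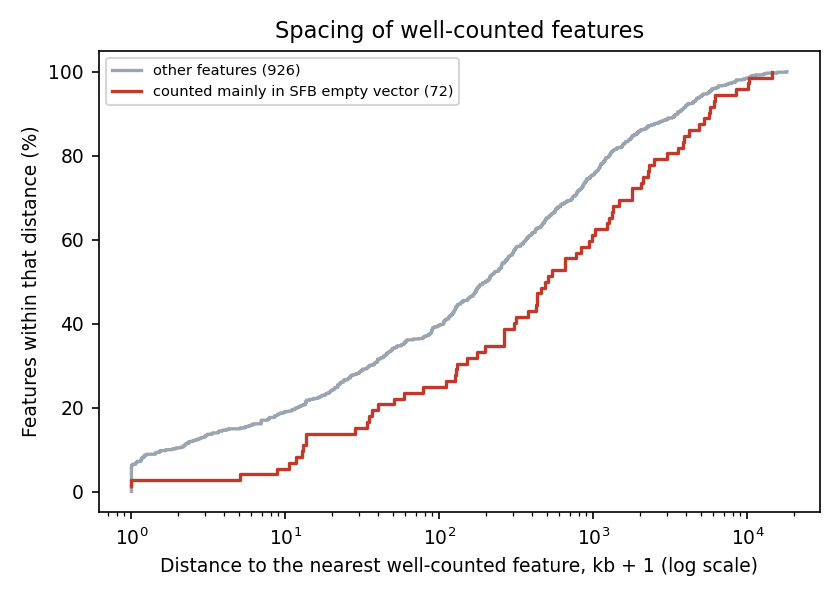
Percentage of features (vertical) whose nearest well-counted feature lies within a given distance (horizontal, kb + 1, log scale), for the 72 features (red) and the other 926 (grey), with overlapping features at a distance of 0. The red line lies under the grey one at 10 kb (6.94% against 19.4%) and at 100 kb (25% against 39.6%).

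On the left-out start of chromosome 1 the same count limits took 5 of 63 well-counted features, or 7.94%. These are not among the 72, but the study lists gene names for their IDs, and it lists all 5 as protein-coding, as it does 55 of the 62 listed well-counted features there. CCDC17 had 112817 counts in SFB empty vector against 47 in SFB-Ku80, on 13065 and 5 unique pairs. SAMD11 had 25543 and 357 counts. HES4, a transcriptional repressor of the Hairy and Enhancer of split family, had 16683 and 434 counts. RPE65, the retinoid isomerase of the visual cycle in the retinal pigment epithelium, had 14906 and 20 counts, and C1orf87 had 2901 and 12. Most pairs lay in the first column for CCDC17 (93.1%), SAMD11 (90.3%), RPE65 (91.1%) and C1orf87 (96.3%), but not for HES4 (20.5%). Counts per unique pair were 8.64 for CCDC17, 2.96 for SAMD11, 2.06 for HES4, 4.97 for RPE65 and 35.4 for C1orf87. Both orientations thus occurred among the named genes, as among the 72 unnamed features. A share of over 90% in the first column was found for all of these genes but HES4, and for 27.8% of the 72. With only 5 genes, taken by the same count limits, no difference between the sets is read from that. Counts per pair ran from 2.06 to 35.4 here and from 1.03 to 697.8 over the 72.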

How the data were processed

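The authors made the deposited counts with featureCounts 2.0.2 from a STAR alignment (version 2.7.6a in the submitters' processing notes) to CHM13 v1.1. By the file headers, both ends of a pair had to be mapped, the minimum fragment length was set to 18, multimapping reads were included and strand was ignored. The authors also deposited unscaled counts of uniquely mapped pairs per feature, unstranded and for each strand. Lines of these tables that name no feature were kept out. They hold 79.7% of the SFB empty vector read pairs and, for SFB-Ku80, 93.5%. The rDNA bin signal was not used.

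Counts were compared without scaling in Python 3.11.15 with scipy 1.17.1. Exons were merged per feature, and distances were measured between feature ends. Shares have Clopper-Pearson intervals, counts exact Poisson intervals and ratios exact conditional binomial intervals, all at 95%. The scripts were tested on simulated data. The members, the tests and the lists were chosen with earlier results of these data known. Features are named by a fixed rule, which takes the 10 with the most counts, the 5 with the most unique pairs, the 5 longest and the 5 shortest, the 5 highest and the 5 lowest ratios, any group of 3 or more within 100 kb, and the 3 just outside each limit. The features just inside the count limit and those the text says were named after their values had been seen come in addition. Groups come from the labelled genotype. Alternatives changed the limits, the scaling, the counter, the pseudocount and the distance.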

Additional observations from a re-analysis of the deposited data

How the results depend on the processing

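No paired analysis was possible because SFB empty vector and SFB-Ku80 were sequenced in 1 library each, and for the same reason no replicate could be left out. The share on the plus strand lay between 44 and 53.7%, and the median exonic length lay between 4081 and 5794 bases. The other values depend on the limits by construction, since other features enter, but some of them changed little. A limit of 1/16 gave 203 features with 12.4% of the SFB empty vector counts, a median log2 ratio of -4.55 and 10.3% of features within 100 kb of another. A limit of 1/64 gave 50 features with 7.90%, -8.29 and 0%. Minimum counts of 1000 and 5000 gave 87 and 52 features, with 8.85% and 8.42% of the counts. Their median log2 ratios were -6.91 and -7.88, and 5000 gave 0% within 100 kb. The rule on CPM gave 69 features with 8.62% of the counts and a median log2 ratio of -7.12. The total counts of the libraries are close, so this scaling could change little. Scaling by unique pairs, which differ 4.20-fold, was not tried. In uniquely mapped pairs the share was 5.69% and the median log2 ratio -6.37. Distances of 10 kb and 1 Mb gave 0% and 12.5%. In settings chosen after seeing the data, the share was 7.77% without the feature with the most counts, and with at most 3 counts per pair, on 16 features, 50% had more pairs in the first column and unique pairs summed to 254 times as many in SFB empty vector in place of 141. These sums lean on chr4:151402687-151768795, without which they were 135 times for that class and 105.3 times for all other features of the 72. Depth limits the SFB-Ku80 side, where a median of 17 unique pairs stands behind each feature.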

Other observations

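Outside the regions that were analysed, 2 features of the short arms of acrocentric chromosomes also passed both count limits. At chr21:5692612-5754003 there were 3596 counts in SFB empty vector against 48 in SFB-Ku80 on 14 and 2 unique pairs. At chr22:6244131-6292336 there were 4616 and 0 counts on 2 and 0 unique pairs. Counts per unique pair were 257 and 2308 in SFB empty vector, so the counts rest almost wholly on reads that map to several places.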
